A study of Mus musculus with 31 samples.

Results

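The regions described here are stretches of mouse autosomes that carried H3K9me3 in primordial germ cells of both sexes at embryonic stage E13.5. The autosomes were divided into 247207 bins of 10 kb on the mm9 assembly. A bin was counted as held by a list of H3K9me3 peaks when at least 1 kb of it lay in merged peaks. Members were the bins held by 2 or more of the 3 female lists and by 2 or more of the 3 male lists. There were 828 such bins, 0.335% of all autosomal bins, and merging adjacent ones gave 656 regions with a combined length of 8.28 Mb. Members were thus selected on measured values, the peak lengths in the 6 E13.5 H3K9me3 lists, and what those lists show is given as a description without a test. The E10.5 H3K9me3 lists and all H3K27me3 lists took no part in the choice.

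Primordial germ cells are the embryonic precursors of eggs and sperm, and loss of DNA methylation is under way in them between these stages. The study mapped H3K9me3 and H3K27me3 by ultra-low-input native ChIP-seq during that loss, with 1000 sorted cells for each ChIP. All groups were wild-type germ cells on a background of C57BL/6 and GOF18delta_PE-EGFP, a green fluorescent reporter driven by regulatory sequence of Pou5f1 that marks germ cells: E10.5 cells, pooled from different embryos and given no sex in the labels, E13.5 female cells and E13.5 male cells. Each mark had 3 lists in each group, 1 for each ChIP library, which makes 18 lists. Whether replicates were taken from different animals is not given in the labels, so a p-value speaks only to the spread among these libraries, some of which may be technical. Peak lists hold no expression values, so the germ-cell label could not be checked against marker genes here.

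H3K9me3 is the trimethyl mark on lysine 9 of histone H3, a hallmark of heterochromatin. SETDB1, brought to DNA by TRIM28 and KRAB zinc-finger proteins, lays it down on endogenous retroviruses and on some gene clusters, and the SUV39H enzymes lay it down on satellite repeats beside centromeres. In germ cells that have lost DNA methylation, SETDB1 is known to keep H3K9me3 on part of the retroviral copies. H3K27me3 is a different repressive mark, written by Polycomb repressive complex PRC2, mostly over developmental genes. Positions below are those of mm9, and the regions carry no gene names because no mm9 annotation was used here.

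Sequencing depth is unknown, so the total length of a list stands in for how much was called. The autosomal H3K9me3 length was 4.83, 9.75 and 3.29 Mb in female replicates 1, 2 and 3 and 73.96, 43.4 and 23.5 Mb in male replicates 1, 2 and 3. At E10.5 it was 1.80, 42.7 and 0.351 Mb in replicates 1, 2 and 3. Every male list was longer than every female list, and E10.5 replicate 2 stood apart from the other E10.5 lists. An input of that replicate is titled E10.5 but carries the stage E13.5 in the labels, and the H3K27me3 list of E10.5 replicate 3 was called against an input named for H3K9me3. Among H3K27me3 lists, E13.5 male replicate 2 stood apart with 359 peaks and 0.155 Mb, against 1.51 to 34.7 Mb in the other 8 lists.

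The female lists set the extent of the shared territory. Of the 843 bins held by 2 or more female lists (0.341% of autosomal bins), 828 were also held by 2 or more male lists, which is 98.2% of the female bins. The same 828 bins were 5.93% of the 13955 bins held by 2 or more male lists (5.65% of autosomal bins). Single female replicates 1, 2 and 3 held 69.2, 95.2 and 55.3% of the members, against 0.498, 1.23 and 0.307% of all bins. Male replicates 1, 2 and 3 held 99.8, 98.1 and 91.5%, against 8.67, 5.79 and 3.21%. The rule fixed both sets of shares. All 3 male lists held 740 of the members, all 3 female lists held 163, and all 6 lists held 159. The count rests on single female lists: it was 418 without female replicate 1, 203 without female replicate 2 and 533 without female replicate 3, where both remaining female lists had to hold a bin. Leaving out a male list left between 742 and 810 bins.

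Of the 15 bins held by 2 or more female lists but not by 2 male lists, 13 were held by 1 male list and so fell short by 1 list. An example is chromosome 3 from 122350001 to 122360000, where female replicates 1, 2 and 3 had 1645, 1054 and 265 bp in peaks and male replicates 4494, 928 and 911 bp. That example was chosen after its values were seen.

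The 1 kb minimum cuts through a continuous range of lengths. Just inside it lay chromosome 6 from 132440001 to 132450000, where the female list that decided membership had 1001 bp in peaks, and chromosome 7 from 7410001 to 7420000, also with 1001 bp. Just outside lay chromosome 9 from 5070001 to 5080000 and chromosome 7 from 46490001 to 46500000, each with 999 bp in the deciding female list. The latter bin directly precedes one of the longest member regions, so region borders depend on this minimum.

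Most members stood alone. Of the 656 regions, 573 were a single bin (87.3%), 53 had 2 bins and 30 had 3 or more, and those 30 regions contained 149 of the 828 bins. Gaps between neighbouring regions on a chromosome had a median of 1280 kb and quartiles of 120 and 4560 kb. Although the median gap was long, 149 of 637 gaps were 100 kb or less. Of 2482 windows of 1 Mb, 2062 had no member, and 30 windows with 5 or more members held 318 bins, 38.4% of the total. Below, members in these 30 windows are called clustered and the other 510 scattered, a division set by the cut at 5 members.

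Chromosome 7 carried the most members, 14.4% of them in 85 regions, or 7.81 per 1000 bins, which is 2.33 times its share of the autosomal bins. It was followed by chromosome 1 with 109 bins (5.53 per 1000), chromosome 5 with 83 (5.44 per 1000), chromosome 17 with 51 (5.35 per 1000) and chromosome 12 with 62 (5.11 per 1000). The sparsest was chromosome 10, with 14 bins or 1.08 per 1000. Chromosomes 19, 2, 11, 14 and 15 were also sparse, at 1.47, 1.49, 1.56, 1.60 and 1.64 per 1000. The remaining 8 autosomes lay between 2.51 and 3.66 per 1000. Bins held by 2 or more male lists but fewer than 2 female lists, 13127 in number, were also densest on chromosome 7, at 1.91 times its share. On chromosomes 1 and 5 those male bins were near their share, at 1.02 and 0.964 times, where the shared bins were at 1.65 and 1.62 times. These densities are descriptions, since the lists that chose the members also set them.

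**Figure D1:**
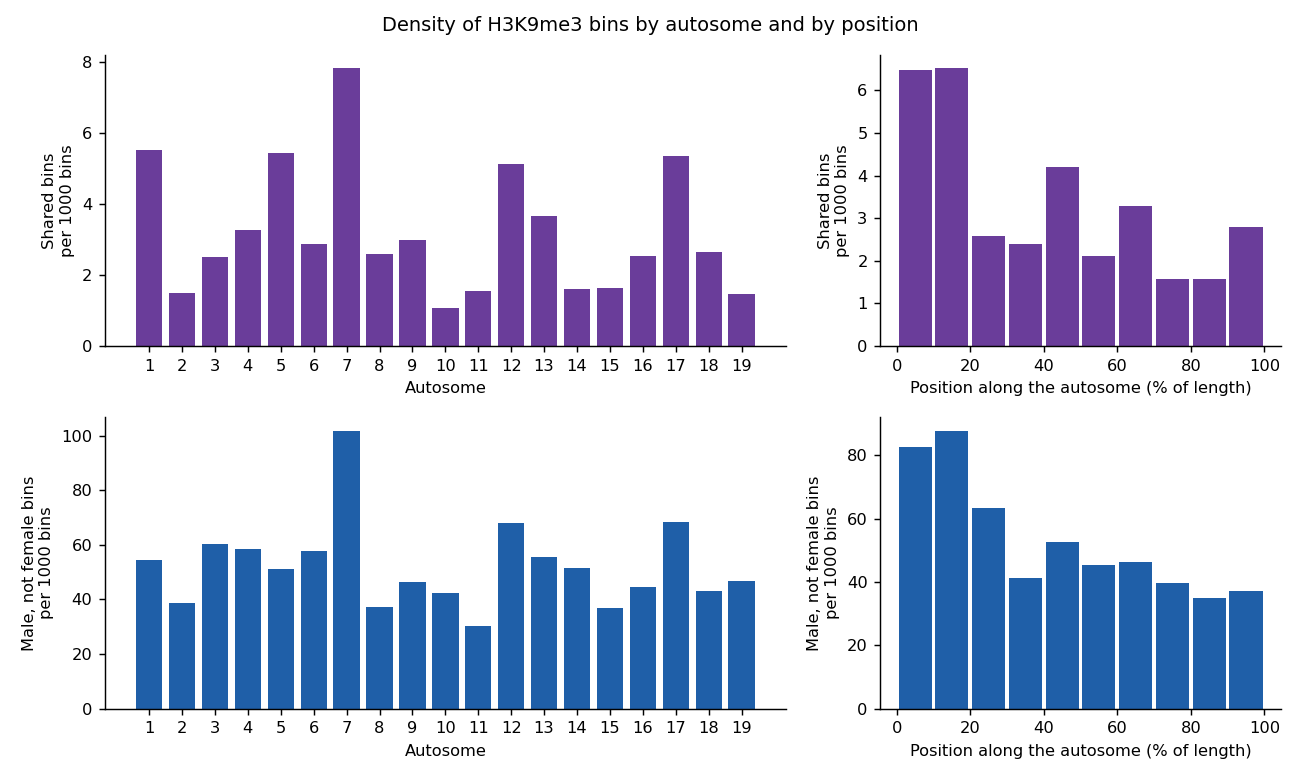
Shared bins (top) and bins held by 2 or more male but fewer than 2 female lists (bottom), as bins per 1000 autosomal 10-kb bins, for each autosome (left) and for bands of 10% of autosome length from the centromeric end (right). Chromosome 7 is highest in both rows, at 7.81 shared bins per 1000, and the 2 bands nearest the centromere hold the most shared bins.

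Gene families that form large tandem clusters differ widely between autosomes, and their numbers can be set beside these densities without placing any gene. In RefSeq (GRCm38.p6) chromosome 7 has the most protein-coding genes with symbols starting in Zfp (zinc-finger proteins, 93 of 391), Vmn1r (vomeronasal type 1 receptors, 126 of 231) and Vmn2r (vomeronasal type 2 receptors, 52). Over the 19 autosomes, the density of shared bins against the density of these families had Spearman's rho of 0.34 for Zfp, 0.61 for Vmn1r and 0.28 for Vmn2r. For Olfr (olfactory receptors), rho was -0.27, and for all protein-coding genes -0.093. Pearson's r was 0.60 for Zfp, 0.61 for Vmn1r and 0.65 for Vmn2r. It was 0.041 for Olfr and 0.142 for all protein-coding genes. The sign of these last values and the order of the families thus depended on the measure. These values describe 19 chromosomes, of which chromosome 7 is extreme in most measures, and Vmn1r genes were counted on only 7 of them. Chromosome 12, with 62 shared bins, had 6 Zfp genes and no gene of the 3 receptor families, so family numbers did not follow the members everywhere.

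Mouse autosomes have their centromere at the start of the sequence. The first and second 10% of chromosome length held 160 and 161 members, together 38.8% of them, against 20% of the bins. Among male bins that were not shared the figure was 32.1%. The E10.5 lists, which had no part in the choice, had 27.2, 33.8 and 36.8% of their held bins there in replicates 1, 2 and 3. Replicate 3 held only 57 autosomal bins, 49 of them members, so its share largely repeats theirs. In replicates 1 and 2, 133 of 537 and 814 of 11919 held bins were members. The bands from 70 to 80% and from 80 to 90% of the length were the emptiest, with 39 members each, and the last 10% had 69. Some of the fullest 1-Mb windows lay in the first 20% of the length. On chromosome 7, those starting at 7000001, 9000001, 10000001 and 15000001 had 11, 16, 9 and 19 members. The window at 13000001 on chromosome 17 had 17, and that at 18000001 on chromosome 12 had 11. Part of the members near chromosome starts thus came from a few clusters. The assembled sequence begins at about 3 Mb, and the first Mb from there held 54 members on 12 autosomes. Their mean was 3.38 kb per bin in female and 5.77 kb in male cells, and 26 of the 54 were held by all 3 female lists. Regions on chromosomes 11 (3020001 to 3100000) and 9 (3000001 to 3040000) raised the female mean, with 8.85 and 7.63 kb per bin. It is thus not typical of the other members there.

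The fullest window was chromosome 5 from 95000001 to 96000000, with 33 members and a further 50 bins held in male cells only by the rule used above. Next came chromosome 1 from 85000001 to 86000000, with 30 members and 4 further male bins. Chromosome 7 from 15000001 to 16000000 had 19 members and 66 further male bins. Chromosome 1 from 87000001 to 88000000 had 18 members and 5 further male bins, and chromosome 17 from 13000001 to 14000000 had 17 members and 14 further male bins. The windows thus differed in how much of the male territory was shared: most of it in the 2 windows of chromosome 1, a smaller majority on chromosome 17, and a minority on chromosomes 5 and 7.

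H3K9me3 peaks filled less of the members in female than in male cells. The mean peak length per shared bin was 1.49, 2.21 and 1.32 kb in female replicates 1, 2 and 3, and 6.27, 4.55 and 3.31 kb in male replicates 1, 2 and 3. Group means were 1.67 ± 0.47 kb in female and 4.71 ± 1.49 kb in male cells (SD, n = 3 each), a difference of 3.04 kb and a ratio of 2.82. Every male list lay above every female list. Autosomal list length moved the same way, from 3.29 to 9.75 Mb in female and 23.5 to 73.96 Mb in male lists. Sex and list length cannot be told apart here. In the 13127 male bins that were not shared, the ratio was 9.45, with 2.40 ± 1.17 kb in male and 0.254 ± 0.168 kb in female cells (SD, n = 3 each).

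Single peaks were also shorter in female cells. The widest peak reaching a shared bin had a median width of 1054, 1221 and 1068 bp in female replicates 1, 2 and 3. In male replicates the medians were 5406, 2948 and 1978 bp. A peak of 5 kb or wider reached 18, 38 and 23 of the 828 bins in female replicates 1, 2 and 3, and 463, 171 and 82 in male replicates 1, 2 and 3. Bins with a peak held on average 1.69 to 2.46 peaks in female and 2.45 to 2.78 in male lists. Among bins with a peak, the groups thus differed more in the width of peaks than in their number. Bins without a peak are not in these means. In female replicates 1, 2 and 3, a peak reached 726, 821 and 622 of the 828 bins. In male replicates 1, 2 and 3 it was 827, 827 and 815.

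Bin by bin, the male to female ratio of mean peak length had a median of 3.20, with quartiles of 2.39 and 4.198. In 515 bins (62.2%) every male list exceeded every female list. The ratio lay between 0.8 and 1.25 in 36 bins, and the female mean was above the male mean in 7. The near-equal bins ranged from short peaks in both groups to bins that were full in both. Female means of at least 8 kb occurred in 10 bins. Peak lengths of a region in female and male cells followed each other loosely, with Spearman's rho of 0.39 over 656 regions (kb per 10 kb), a value that the choice of members affects.

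**Figure D2:**
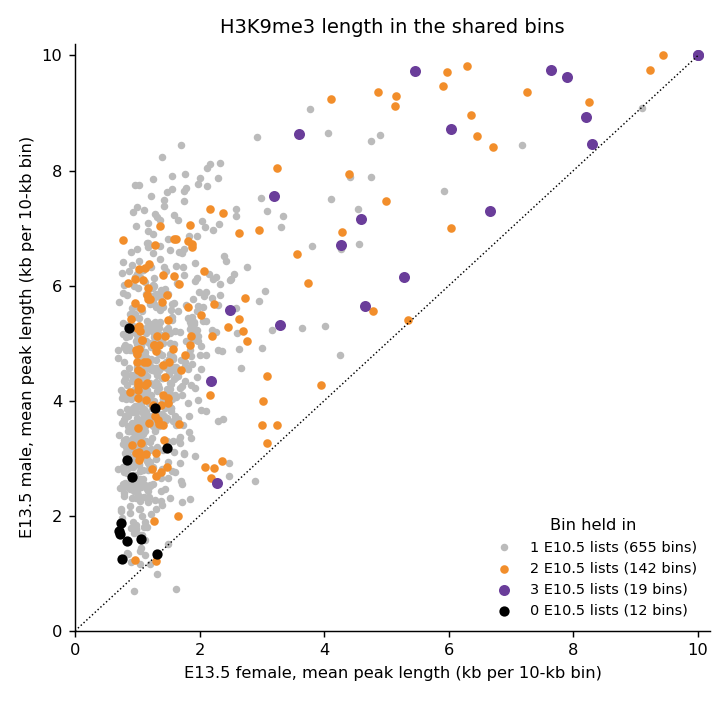
Mean H3K9me3 peak length per 10-kb bin in E13.5 female (x axis) and male (y axis) lists for the 828 shared bins, coloured by the number of E10.5 lists that held the bin, with a dotted line of equality. Most bins lie above the line at 1 to 2 kb in female cells, and the 19 bins held by all 3 E10.5 lists lie mainly to the right.

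The regions with the largest female excess were small. Chromosome 8 from 71990001 to 72000000 had 0.888, 2.18 and 1.81 kb in female replicates and 1.14, 1.03 and 0 kb in male replicates, a difference of 0.902 kb. Differences of 0.323 and 0.260 kb followed at chromosome 6 from 11780001 to 11790000 and at chromosome 8 from 71940001 to 71950000. In all 3 the female and male values overlapped, and 5 of the 656 regions had a female mean above the male mean.

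The longest member region was chromosome 1 from 85220001 to 85350000, 130 kb. Its peak length was 55.4, 85.5 and 65.3 kb in female replicates 1, 2 and 3 and 107, 103 and 95.1 kb in male replicates. At E10.5 it had 15.2, 115 and 15.5 kb in replicates 1, 2 and 3. All 9 lists had peaks there, the female lists stayed below the male lists, and E10.5 replicate 2 exceeded both. In that replicate 1 peak of 105710 bp spanned most of the region, the widest peak of any H3K9me3 list in the members.

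Another long region lay about 2 Mb further on, at chromosome 1 from 87420001 to 87530000, with 110 kb. Female replicates had 32.4, 47.7 and 40.2 kb there and male replicates 70.5, 62.6 and 57.2 kb. E10.5 replicates had 2.02, 83.5 and 7.59 kb. At chromosome 1 from 85060001 to 85140000, 80 kb long, female replicates had 19.2, 36.6 and 28.1 kb, male replicates 58.0, 50.7 and 51.0 kb and E10.5 replicates 2.20, 66.9 and 7.74 kb. All 3 regions of chromosome 1 shared the order of female below male below E10.5 replicate 2.

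A different pattern held at the start of chromosome 11, from 3020001 to 3100000. There the 80-kb region was nearly full at E13.5, with 70.4, 71.7 and 70.4 kb in female and 72.5, 72.1 and 71.7 kb in male replicates. The male mean was 1.28 kb above the female mean. The ranges did not overlap, but only narrowly, with 71.67 kb in the highest female and 71.70 kb in the lowest male list. E10.5 replicates 1, 2 and 3 had 9.46, 75.3 and 18.1 kb. The widest member peak of each E13.5 list lay in this region, between 27774 bp in female replicate 3 and 50387 bp in male replicate 2.

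The remaining long regions had the highest male to female ratios of the 6 longest. Chromosome 7 from 46500001 to 46580000 had 4.84, 14.7 and 13.4 kb in female replicates, 43.1, 39.7 and 24.7 kb in male replicates, and 0, 44.4 and 0.501 kb at E10.5. Chromosome 17 from 13380001 to 13450000 had 9.18, 24.04 and 13.46 kb in female replicates, 53.0, 40.9 and 38.4 kb in male replicates, and 0.775, 53.7 and 0.764 kb at E10.5. In both, E10.5 replicates 1 and 3 had less than 1 kb in the whole region while replicate 2 was above every male list.

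**Figure D3:**
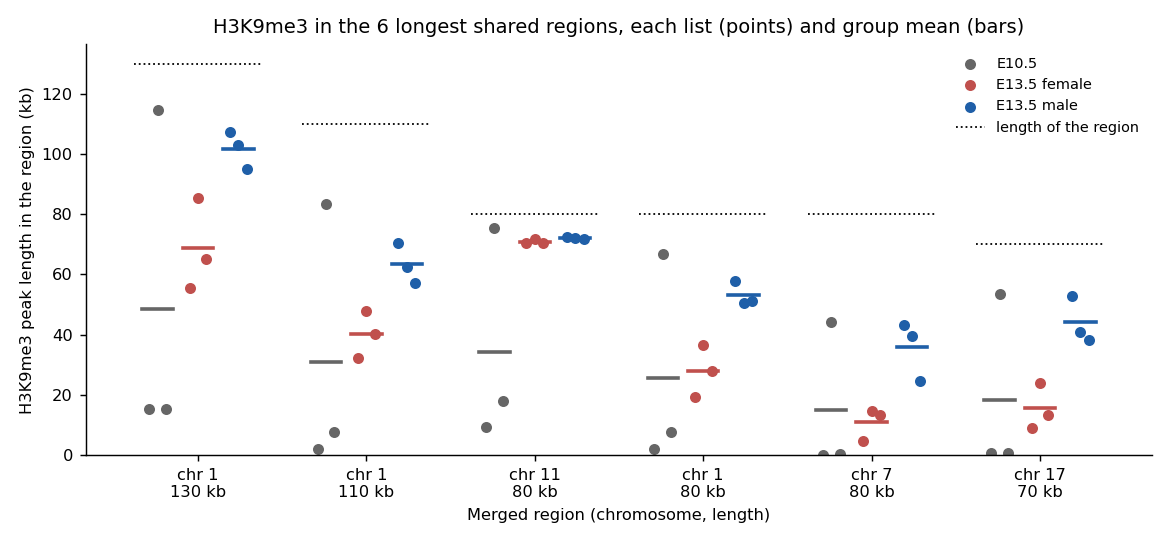
H3K9me3 peak length in kb (y axis) in the 6 longest shared regions, with a point for each list, a bar for each group mean and a dotted line at the region's length. E10.5 replicate 2 sits highest of the E10.5 lists in every region, and only the region on chromosome 11 has female and male lists at nearly the same level, from 70.4 to 72.5 kb.

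Among short regions, the 4 densest in female cells were single bins. Chromosome 17 from 39980001 to 39990000 had 4.73, 5.745 and 5.56 kb in female and 5.71, 4.79 and 5.69 kb in male replicates. Chromosome 10 from 7230001 to 7240000 had 5.30, 5.33 and 5.22 kb in female and 6.15, 6.15 and 6.14 kb in male replicates. Chromosome 13 from 12950001 to 12960000 had 4.18, 6.11 and 4.31 kb in female and 10.0, 10.0 and 8.09 kb in male replicates. Female and male values overlapped at the first of these and did not at the others. Chromosome 8 from 19940001 to 19950000 had 4.81, 5.32 and 4.13 kb in female and 9.43, 9.10 and 5.14 kb in male replicates, and there the ranges overlapped.

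At E10.5, before the stage at which the members were defined, presence depended on the list. E10.5 replicate 1 held 133 of the 828 bins (16.1%), against 0.217% of all autosomal bins. Replicate 2 held 814 (98.3%), against 4.82% of all bins. Replicate 3 held 49 (5.92%), against 0.0231% of all bins. In each list the members were thus held more often than autosomal bins at large, by 73.9, 20.4 and 257 times in replicates 1, 2 and 3. The mean over the 3 lists was 40.1 ± 50.7% (SD, n = 3), and without replicate 2 it was 10.99%, so the lists are given singly. With 3 lists and no second group there is no test of these shares. They also moved with the choice of members: the 203 bins left without female replicate 2 were held at 28.6, 99.5 and 20.2% by E10.5 replicates 1, 2 and 3. Without female replicate 1, E10.5 replicate 3 held 11.2%.

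**Figure D4:**
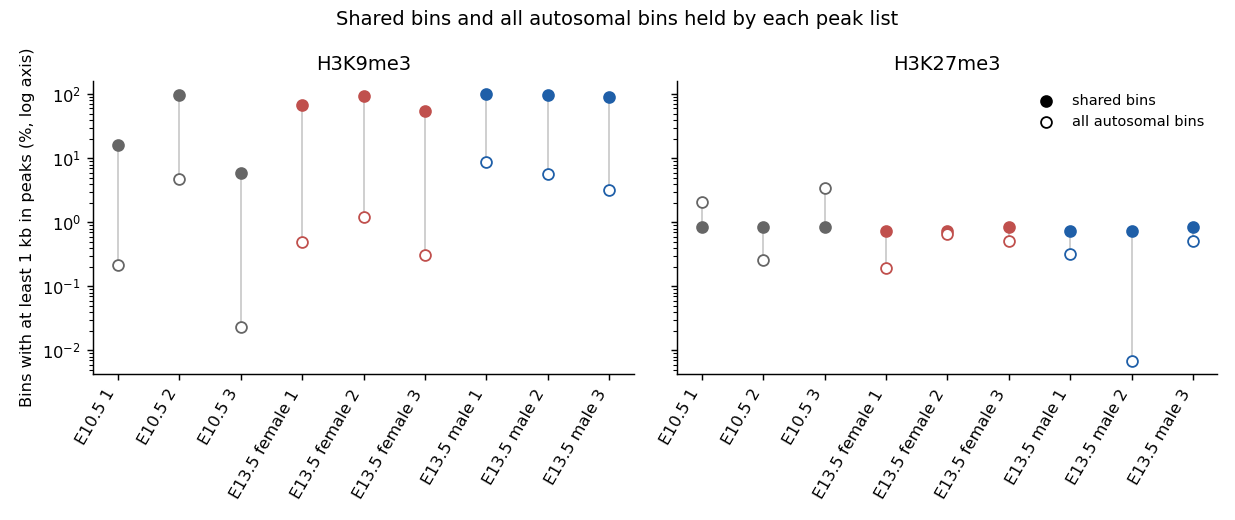
Percent of bins with at least 1 kb in peaks (y axis, log scale) in each of the 9 H3K9me3 lists (left) and 9 H3K27me3 lists (right), for the 828 shared bins (filled) and all autosomal bins (open). The filled points of H3K9me3 E10.5 lists lie at 16.1, 98.3 and 5.92%, each above its open point, while H3K27me3 lists all hold 0.725 or 0.845% of the shared bins.

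By number of lists, 12 members were held by no E10.5 list, 655 by 1 list, 142 by 2 and 19 by all 3. Of those held by 1 list, 653 were held by replicate 2 alone and 2 by replicate 3 alone. At least 1 E10.5 list held 98.6% of the members, against 4.83% of all bins. At least 2 lists held 19.4% (161 bins), against 0.225%, and all 3 held 2.29%, against 0.0089%. Only 22 autosomal bins were held by all 3 E10.5 lists, and 19 of them were members. For regions, where 1 held bin suffices, E10.5 replicates 1, 2 and 3 held 116, 642 and 26 of 656.

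Shares of peak length were also above the members' share of bins. The members, at 0.335% of the autosomal bins, contained 20.5, 11.2 and 41.5% of the autosomal H3K9me3 peak length of E10.5 replicates 1, 2 and 3. For comparison, they contained 25.4, 18.7 and 33.2% of the length in female replicates and 7.02, 8.69 and 11.6% in male replicates, which are lists the rule used. The shortest list of each group had the largest share. The authors' peak scores, used here only to rank peaks within a list, placed member peaks high at E10.5: their median percentile was 61.3, 79.6 and 76.6 in replicates 1, 2 and 3, against 48.0, 48.2 and 37.5 for peaks elsewhere. Of the 100 highest-scoring autosomal peaks, 21, 13 and 74 touched a member in replicates 1, 2 and 3, where 14.6, 5.38 and 30.9% of all autosomal peaks did. The lists have 2643, 23717 and 897 autosomal peaks, so these 100 are unequal fractions of them. Peaks in members were wider too, with medians of 736, 3260 and 428 bp at E10.5 against 437, 1021 and 263 bp elsewhere.

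Members were wider than other male bins, and width bears on whether an E10.5 list holds a bin. Bins were therefore compared within classes of mean male peak length. Among bins with 2 to 3 kb in male cells, E10.5 replicate 1 held 8.91% of 101 shared bins and 2.64% of 3450 male bins that were not shared, and replicate 2 held 97.0 and 71.5%. With 3 to 4 kb, replicate 1 held 13.2% of 159 and 4.80% of 1979, and replicate 2 held 98.7 and 88.8%. With 4 to 6 kb the values were 16.0% of 362 and 10.8% of 1418 for replicate 1, and 99.7 and 97.3% for replicate 2. From 6 kb upwards replicate 2 held every bin of both kinds. Replicate 3 held 3.96, 1.26, 3.04 and 6.87% of shared bins in the classes from 2 to 8 kb and at most 0.141% of the others. Within these classes the shared bins were ahead in replicates 1 and 3 in all classes below 8 kb and in replicate 2 below 6 kb. The gap narrowed with width in replicate 2. Widths were not equal within a class, as the shared bins had the higher male mean in each. That mean was 2.59 against 2.46 kb in the class of 2 to 3 kb and 4.92 against 4.71 kb in that of 4 to 6 kb. The part of width in the gap was not tested. In the class of 1 to 2 kb there were 34 shared bins, of which replicates 1 and 3 held 1 and 3. The 3 shared bins below 1 kb were in no class.

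**Figure D5:**
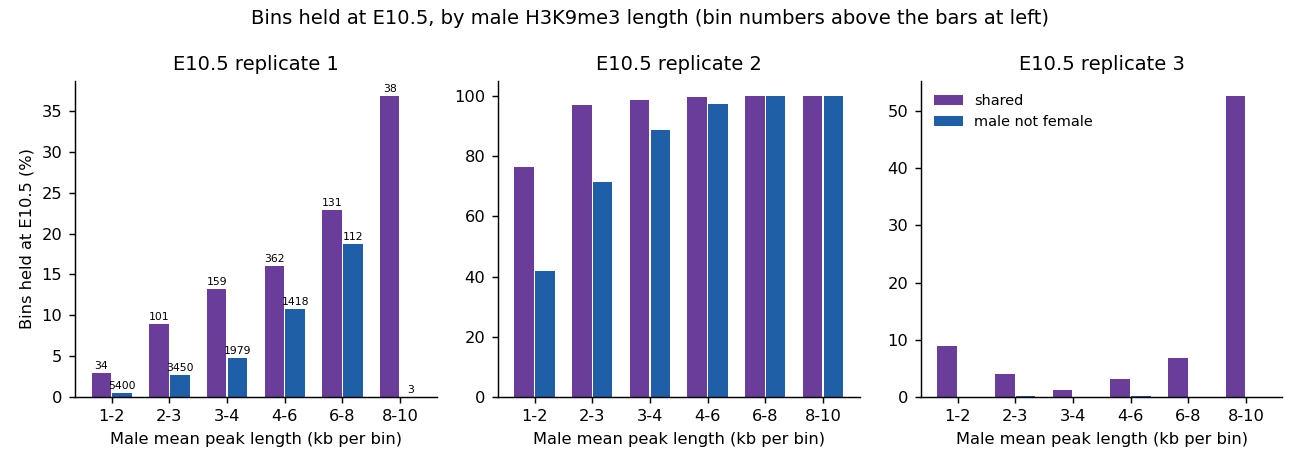
Percent of bins held by each E10.5 list (y axis) in classes of mean male H3K9me3 length (x axis, kb per bin), for shared bins and for bins held by male but not female lists, with the number of bins above the bars at left. In the class of 2 to 3 kb E10.5 replicate 1 holds 8.91 and 2.64%, and the class of 8 to 10 kb has only 3 male bins that are not shared.

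Presence at E10.5 also followed the number of female lists. The 163 members in all 3 female lists were held at 31.9, 100 and 25.2% by E10.5 replicates 1, 2 and 3. The 665 members in 2 female lists were held at 12.2, 97.9 and 1.20%. Mean peak lengths in these classes were 3.40 and 1.246 kb in female and 6.10 and 4.37 kb in male cells, so they differed in width as well. Over the 656 regions, peak length per 10 kb in male cells against that in E10.5 replicate 2 had Spearman's rho of 0.60, and that in female cells against the same list had 0.40. These are descriptions over regions of the same lists, which are not independent replicates.

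E10.5 replicates 1 and 3 differed in which members they held. In the 30 windows with 5 or more members, replicate 1 held 33 of 318 bins (10.4%) and replicate 3 held 34 (10.7%). Among the 510 scattered members replicate 1 held 100 (19.6%) and replicate 3 held 15 (2.94%). Replicate 1 thus held a larger share of the scattered members and replicate 3 of the clustered ones. Many of the clustered bins of replicate 3 lay in a pair of windows on chromosome 1, with 13 from 85000001 to 86000000 and 4 from 87000001 to 88000000. In each of the other 10 of the 12 fullest windows it held 0 or 1. By region length, replicate 3 held 1.75% of regions of 1 bin, 5.66% of regions of 2 bins and 43.3% of regions of 3 or more bins. Replicate 1 held 16.6, 20.8 and 33.3% of them. A longer region has more bins in which the minimum can be met, and the part of this in these shares was not tested.

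All 3 E10.5 lists held 12 regions. They include the 2 longest regions of chromosome 1 and the region of chromosome 11 described above. After those, the ones with the most peak length at E10.5 lay on chromosome 9 (3000001 to 3040000), chromosome 7 (67000001 to 67040000) and chromosome 1 (87350001 to 87400000). At the chromosome 7 region, E10.5 replicates had 9.03, 35.5 and 6.18 kb, female replicates 10.96, 17.96 and 14.9 kb and male replicates 25.8, 24.3 and 26.4 kb. At the chromosome 1 region, E10.5 replicates had 3.74, 41.8 and 4.77 kb, female replicates 14.5, 18.9 and 14.1 kb and male replicates 36.1, 32.3 and 28.4 kb. In both the female lists lay below all male lists. The chromosome 9 region is taken up below, since H3K27me3 peaks were called there as well.

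None of the 12 members that no E10.5 list held was held by all 3 female lists. The widest in male cells was chromosome 9 from 17900001 to 17910000, with 8.11, 3.83 and 3.86 kb in male replicates, 1.11, 1.17 and 0.323 kb in female replicates and no peak base in any E10.5 list. Chromosome 7 from 66720001 to 66730000 had 0, 2.03 and 2.41 kb in female replicates, 3.73, 2.28 and 3.49 kb in male replicates and 0.531 kb in E10.5 replicate 2. These examples were chosen after their values were seen. Only 4 members lacked any peak base at E10.5, and no region was both held by all 6 E13.5 lists and free of E10.5 peaks. Members in no E10.5 list were thus few, but this rests on E10.5 replicate 2, the longest list of that stage. That replicate alone held 653 of the 828 members at E10.5.

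Few members carried H3K27me3. Of the 828 bins, 12 had at least 1 kb of H3K27me3 in 1 or more of the 9 lists (1.45%), against 3.65% of all autosomal bins. Each H3K27me3 list held 6 or 7 members (0.725 or 0.845%), whatever its length. The background was 2.04, 0.263 and 3.41% of all bins in E10.5 replicates 1, 2 and 3, 0.193, 0.664 and 0.505% in female replicates, and 0.321, 0.00688 and 0.508% in male replicates. Members were thus held less often than bins at large in E10.5 replicates 1 and 3, the longest lists. They were held more often in the other 7 lists, by 1.09 to 105.4 times, but on few bins. Of the 6 or 7 members in each list, 4 were bins that all 9 lists held, which left 2 or 3 others. The higher shares thus rested largely on those 4 bins. In total length the members carried 39.01, 35.1 and 16.0 kb at E10.5, 20.5, 14.9 and 17.2 kb in female and 18.5, 30.1 and 21.7 kb in male replicates. The groups overlapped.

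As a share of each list's autosomal H3K27me3 length, the members had 0.200, 1.697 and 0.0462% in E10.5 replicates 1, 2 and 3. Female replicates had 1.36, 0.296 and 0.431% and male replicates 0.753, 19.4 and 0.546%. The 6 E13.5 lists averaged 3.80 ± 7.67% (SD, n = 6) and the E10.5 lists 0.648 ± 0.912% (SD, n = 3), a difference of 3.16 points with an exact two-sided permutation p of 0.631. Male lists averaged 6.91 ± 10.8% and female lists 0.695 ± 0.578% (SD, n = 3 each), a difference of 6.22 points with an exact permutation p of 0.5 (0.631 for both tests after Benjamini-Hochberg adjustment). The smallest p that 3 against 3 allows is 0.1. Both differences rested on male replicate 2, the list of 359 peaks: without that replicate, its H3K9me3 list left out too, they were 0.0226 points (exact permutation p = 0.964) and -0.0437 points (exact permutation p = 1).

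What H3K27me3 there was lay in a handful of places. Chromosome 9 from 3000001 to 3040000, at the start of the assembled sequence, had 27.6, 27.2 and 7.63 kb of H3K27me3 in E10.5 replicates, 15.3, 7.66 and 6.74 kb in female and 13.503, 24.9 and 9.10 kb in male replicates. Its H3K9me3 peak length was 36.4, 38.3 and 11.4 kb at E10.5, 33.7, 28.0 and 29.8 kb in female and 36.1, 34.5 and 34.8 kb in male replicates. Both marks were thus called there in all 18 lists. Chromosome 2 from 98500001 to 98510000 had between 1.62 and 1.96 kb of H3K27me3 in all 9 lists, and between 1.82 and 3.23 kb of H3K9me3 in the 6 E13.5 lists. The deposited lists were not filtered here for repeats or for regions of high signal with any antibody. Whether calls of both marks at such places reflect the marks themselves was not tested. Chromosome 4 from 118220001 to 118230000 had about the same length of both marks, with 1.28 to 1.32 kb of H3K9me3 and 1.32 to 1.33 kb of H3K27me3 in female replicates. In all, 5 of the 656 regions had at least 1 kb of H3K27me3 in 2 or more lists. Another of them was the chromosome 17 bin from 39980001 to 39990000 described above, which 4 H3K27me3 lists held.

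All 9 H3K27me3 lists held 8 autosomal bins (0.00324%), of which 4 were members, on chromosomes 2 and 9, and the other 4 had no H3K9me3 peak base in any of the 9 lists. Those 4 members contained from 47.7 to 70.1% of each list's H3K27me3 length within the members. In male replicate 2 they alone made up 13.6% of the whole list. Without them 824 members remained, the differences in H3K27me3 share were 0.928 points (exact permutation p = 0.679) and 1.84 points (exact permutation p = 0.5), and E10.5 replicates 1, 2 and 3 held 15.8, 98.3 and 5.46% of the members. The other 8 members with H3K27me3 in at least 1 list stayed in these values.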

How the data were processed

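Each ChIP library has 1 list of broad peaks, deposited by the authors, and the peak names in those lists give the input it was called against. MACS2 2.1.0, BWA 0.7.5a, CASAVA 1.8.4, SAMtools, Picard and deepTools 3.3.0 appear in the submitters' processing notes with the build mm9, but their order and settings do not. No scale is stated for the deposited scores (column 7 exceeded column 8 in 100% of peaks), so they only rank or filter peaks within a list. Deposited starts and ends were merged where peaks overlapped, and base pairs in peaks were counted in each 10-kb autosomal bin up to the last peak end. The peaks of chromosome 7 reach 152352549, past the last GRCm38 gene end at 145324059, so no gene was placed by position. Depth is unknown.

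Inputs, sex chromosomes and peaks on other sequences were left out. Groups came from the sample titles. One value for each library was compared by an exact two-sided permutation test that enumerates every split, and the 2 p-values were adjusted by Benjamini-Hochberg. Bin lengths and the test were checked on simulated peaks. Analyses used Python 3.11.15, numpy 2.4.6, pandas 2.3.3 and scipy 1.17.1. The members, lists and rules were chosen with earlier results of these data known. Named regions were the 6 longest, the 4 densest short ones in female cells, the 6 with most E10.5 length among those in all 3 E10.5 lists, the 3 with the largest female excess, the 3 with most H3K27me3 and the bins beside the minimum. A class of regions in all E13.5 lists without E10.5 peaks was empty. Other minimums, bins, score limits, list numbers and left-out libraries were tried.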

Additional observations from a re-analysis of the deposited data

Results flagged for a closer look

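In H3K27me3 E13.5 male replicate 2, 19.4% of the autosomal H3K27me3 length lay in the shared bins, far from the other 5 E13.5 lists, which had 0.296 to 1.36%. This list has 359 peaks and 0.155 Mb of autosomal length, and its length within the members, 30.1 kb, compares with 14.9 to 21.7 kb in the other E13.5 lists. Of its whole length, 13.6% lay in the 4 members that all H3K27me3 lists held. The part of list length in this share was not tested further.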

How the results depend on the processing

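The extent of the shared bins depended on the rule. The 8.28 Mb became 60.5 Mb with any overlap, 1.58 Mb with at least 2 kb and 0.31 Mb with at least 5 kb. With all 3 lists of each group it was 1.59 Mb. With 5-kb bins, for which the minimum was also changed to 500 bp, it was 11.04 Mb (2208 bins). A score of at least 20 gave 1.23 Mb, and an equal number of peaks per list (the 6720 ranked highest) gave 2.87 Mb. Bins shifted by 5 kb gave 8.24 Mb, and leaving out 1 library gave 2.03 to 8.10 Mb. Male minus female length per shared bin was positive in every alternative, but moved from 3.04 to 1.61 kb with at least 5 kb and to 1.92 kb with a score of at least 20 (2.44 to 3.80 kb with 1 library left out). E10.5 replicate 3 held 35.0% of the members with the score minimum and 25.8% with all 3 lists. The mean share held at E10.5 ranged from 10.99 to 57.2% with 1 library left out. The difference in H3K27me3 share between stages ranged from 0.0226 to 3.83 points and that between sexes from -0.0437 to 9.40 points with 1 replicate of both marks left out, and the exact permutation p stayed between 0.2 and 1. With the replicate block the differences were again 3.16 and 6.22 points, with exact permutation p of 0.63 and 0.75. Whether replicate numbers pair the libraries is not settled. Deviations of libraries of the same number correlated between -0.222 and 0.228 for H3K27me3 and between -0.0591 and 0.11 for H3K9me3 over 1-Mb windows. For H3K27me3, the pairs of replicate 3 were all positive, at 0.139, 0.228 and 0.143. Pairs of replicates 1 and 2 had both signs. Libraries of different number were not compared. Leaving out the members with H3K27me3 in all lists was chosen after seeing the data. Causes of these changes were not tested.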

Other observations

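A pair of members varied little in H3K9me3 length between lists that differ widely in total length. Chromosome 13 from 74660001 to 74670000 had 2.19, 2.54 and 2.32 kb at E10.5, 2.19, 2.46 and 2.20 kb in female and 2.61, 2.45 and 2.66 kb in male replicates. Chromosome 10 from 7230001 to 7240000 had 5.97, 7.04 and 4.30 kb at E10.5, against 5.22 to 6.15 kb at E13.5. These regions are among the 12 that all 3 E10.5 lists held and were picked after their values were seen.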
